A study of Mus musculus with 629 samples.

Results

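A set of 10 genes of innate sensing and NF-kB signalling was followed through single brain macrophages and microglia of mice of 3 Notch3 genotypes. The genes were Cd14, Tlr2, Tlr4 and Nlrp3, which take part in sensing, Il1b and Tnf, which encode cytokines, and Nfkbia, Nfkbiz, Tnfaip3 and Ier3, which are induced by NF-kB. They were taken by symbol from a table of 53546 genes, and all 10 were present. The choice of the 10 rested on their roles and not on a measured difference, but it was made with other results of these cells known.

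The mice were adult C57BL/6 animals, wild-type (WT), heterozygous (Het) or knockout (KO) for Notch3, the gene of a receptor best known from the mural cells of small arteries. All groups carried a reporter made of SM22-Cre, whose promoter is active in smooth muscle, and a Rosa26 tdTomato allele that Cre switches on. Brain cells were sorted singly by flow cytometry into 384-well plates and sequenced with SMART-seq2, a full-length method without molecular identifiers. The labels gave each of the 629 cells a genotype, a plate and a type: 400 were macrophages, 215 microglia, and 14 belonged to a type named only 7. There were 211 WT, 70 Het and 119 KO macrophages and 79 WT, 58 Het and 78 KO microglia.

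As background, CD14 passes bacterial lipopolysaccharide on to TLR4, and TLR2 recognises bacterial lipoproteins. Both receptors signal through adaptor proteins to the kinases that release NF-kB from its inhibitor IkBa, the product of Nfkbia. NF-kB then raises the genes of cytokines, among them Tnf and Il1b, and of its own brakes, among them Nfkbia and Tnfaip3, so that Nfkbia transcripts are a common reading of recent NF-kB activity. NLRP3 is the sensor of an inflammasome that lets caspase-1 cut the interleukin-1 beta precursor into its active form. Microglia are the resident macrophages of the brain tissue, and other macrophages lie along its borders and vessels.

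The 250 bases before the start of 3 of the feedback genes are shown because they hold matches to the NF-kB consensus and their genes are followed pool by pool below. The windows come from RefSeq, build GRCm38.p6, and the capitals mark the match: Nfkbia at chr12:55492648-55492897 on the minus strand, Ier3 at chr17:35821463-35821712 on the plus strand and Tnfaip3 at chr10:19015411-19015660 on the minus strand.
Nfkbia: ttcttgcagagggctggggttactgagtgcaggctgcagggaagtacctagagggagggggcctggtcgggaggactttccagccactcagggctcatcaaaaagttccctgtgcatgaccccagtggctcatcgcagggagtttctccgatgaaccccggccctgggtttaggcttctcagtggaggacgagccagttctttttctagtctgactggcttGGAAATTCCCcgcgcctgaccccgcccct
Ier3: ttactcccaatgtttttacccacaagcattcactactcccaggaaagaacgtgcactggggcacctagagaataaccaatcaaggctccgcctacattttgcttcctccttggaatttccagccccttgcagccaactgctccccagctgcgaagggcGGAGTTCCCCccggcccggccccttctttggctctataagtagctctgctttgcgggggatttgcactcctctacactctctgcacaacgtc
Tnfaip3: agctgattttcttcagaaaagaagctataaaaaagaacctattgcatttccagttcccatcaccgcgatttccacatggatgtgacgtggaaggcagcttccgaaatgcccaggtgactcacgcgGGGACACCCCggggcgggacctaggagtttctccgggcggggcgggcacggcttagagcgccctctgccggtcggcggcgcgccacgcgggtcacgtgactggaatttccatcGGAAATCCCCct
The NF-kB consensus was searched on both strands, and overlapping matches were counted. Counted from the start, the match began at -29 in Nfkbia and at -92 in Ier3, and the 2 matches in Tnfaip3 began at -125 and -12. Another window of Tnfaip3 in the RefSeq table, at chr10:19011964-19012213, held no match. Of the 7 genes with an entry in the RefSeq table, 5 held a match in at least 1 window, against 8.23% of the 27025 genes of that table. The other holders were Tlr2, with a pair of overlapping matches from -173 and -172, and Nlrp3, with a match at -186 in 1 of its 2 windows. The windows of Il1b and Tnf held none, which says only that these letters are not in these 250 bases. A match describes the sequence and is neither a site nor a cause.

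No label named an animal, so a genotype counted as a single sample within either type. No test was run and no p-value is given. Counts were summed over cells and expressed as CPM, counts per 1000000 counts of all genes, and intervals cover counting error only. They may be too narrow, because reads can be PCR copies of 1 molecule. A pool means all cells of a type that share genotype and plate. Each cell type had 8 pools of at least 10 cells, and pool values are given in the order of plates 059s, 529s and 530s for WT, 056s, 524s and 529s for Het, and 060s and 524s for KO. The labels do not say whether a pool holds 1 animal or several.

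Median depth per pool ran from 189778 to 985197 counts in macrophages and from 309966 to 1248883 counts in microglia. Rn18s, the 18S ribosomal RNA, took from 16.4% of the counts of a pool (Het microglia of plate 056s) to 56.4%, so the other genes together took a larger share of the counts on plate 056s. Notch3 itself held 79 counts in all macrophages and 3 in all microglia, too few to check the genotype labels. Of 12 macrophage markers, 9 were called higher in macrophages by the rule given below, and 11 of 12 microglial markers were called higher in microglia. Mrc1, the mannose receptor gene of border macrophages, stood at 4678 CPM among macrophages and 2042 CPM in microglia, and Tmem119 at 43.6 and 3512 CPM. Microglia were thus not free of macrophage transcripts: 88 of 215 had a summed macrophage marker level above 8984 CPM, the level that 95% of macrophages exceeded. Leaving them out kept 127 microglia, of which 12 lay in pools under 10 cells (WT of plate 529s and Het of plate 056s) and were dropped with those pools, so that 115 microglia in 6 pools remained. By the same measure 12 macrophages were left out, which kept 388 in 8 pools. The cells kept are called strict below. Their values differ from the values of all cells both by the cells and by these pools. No monocyte, lymphocyte, mural cell, fibroblast or neuron marker reached the floor defined below in either cell type. Of the other lists, the neutrophil marker Csf3r, with 47.3 CPM among macrophages against 225 CPM in microglia, and the astrocyte marker Slc1a3, at 8.51 and 67.1 CPM, were called lower in macrophages. The endothelial marker Pecam1 was at 1.04 and 29.3 CPM and the dendritic cell marker Zbtb46 at 39.8 and 19.1 CPM, both uncalled. Their part in the levels below was not tested. Among oligodendrocyte markers Mbp was at 263 CPM among macrophages and 137 CPM among microglia.

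The sensors Cd14, Tlr2 and Tlr4 were found in most cells of both types, and at like levels when all cells were counted. Cd14 stood at 283 CPM (95% interval 281 to 286) among macrophages and 266 CPM (95% interval 263 to 269) in microglia, with a count in 91.8% and 97.2% of cells. In macrophages it was at 206, 259 and 239 CPM in the WT pools, 519, 255 and 169 CPM in the Het pools and 208 and 123 CPM in the KO pools. In microglia it was at 281, 269 and 198 CPM in the WT pools, 444, 178 and 203 CPM in the Het pools and 235 and 213 CPM in the KO pools. The pool of plate 056s was the highest in both types, and the other 7 pools of each type lay within a range of little more than 2-fold.

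Tlr2 stood at 150.3 CPM among macrophages and 149.8 CPM in microglia. Its macrophage values were 101, 42.1 and 106 CPM in the WT pools, 248, 99.2 and 139 CPM in the Het pools and 221 and 198 CPM in the KO pools. The WT pool of plate 529s was the lowest of all, and WT and Het pools overlapped. In microglia the values were 125, 109.9 and 116 CPM in the WT pools, 244, 139.9 and 138 CPM in the Het pools and 183 and 114 CPM in the KO pools, and here each Het pool lay above each WT pool, the nearest being 138 and 125 CPM.

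Tlr4 stood at 107 CPM among macrophages and 92.4 CPM in microglia. It was at 135, 58.1 and 83.1 CPM in the WT pools, 133, 52.0 and 45.1 CPM in the Het pools and 165 and 82.0 CPM in the KO pools among macrophages. Among microglia it was at 104, 46.3 and 58.8 CPM in the WT pools, 187, 49.4 and 49.1 CPM in the Het pools and 86.7 and 70.8 CPM in the KO pools. The high pools were those of plates 059s, 056s and 060s in both types, which were also the pools with the lowest share of Rn18s. Across the 8 pools, the rank correlation of Tlr4 with the Rn18s share was -0.88 in macrophages and -0.93 in microglia, against a median of -0.57 over all genes in either type. Macrophage and microglial pools share plates, and these values are descriptions. The strict macrophages had Tlr4 at 106 CPM and the strict microglia at 56.7 CPM, a log2 ratio of 0.89 instead of 0.20, where the median of all genes went from 0.02 to 0.28.

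**Figure D1:**
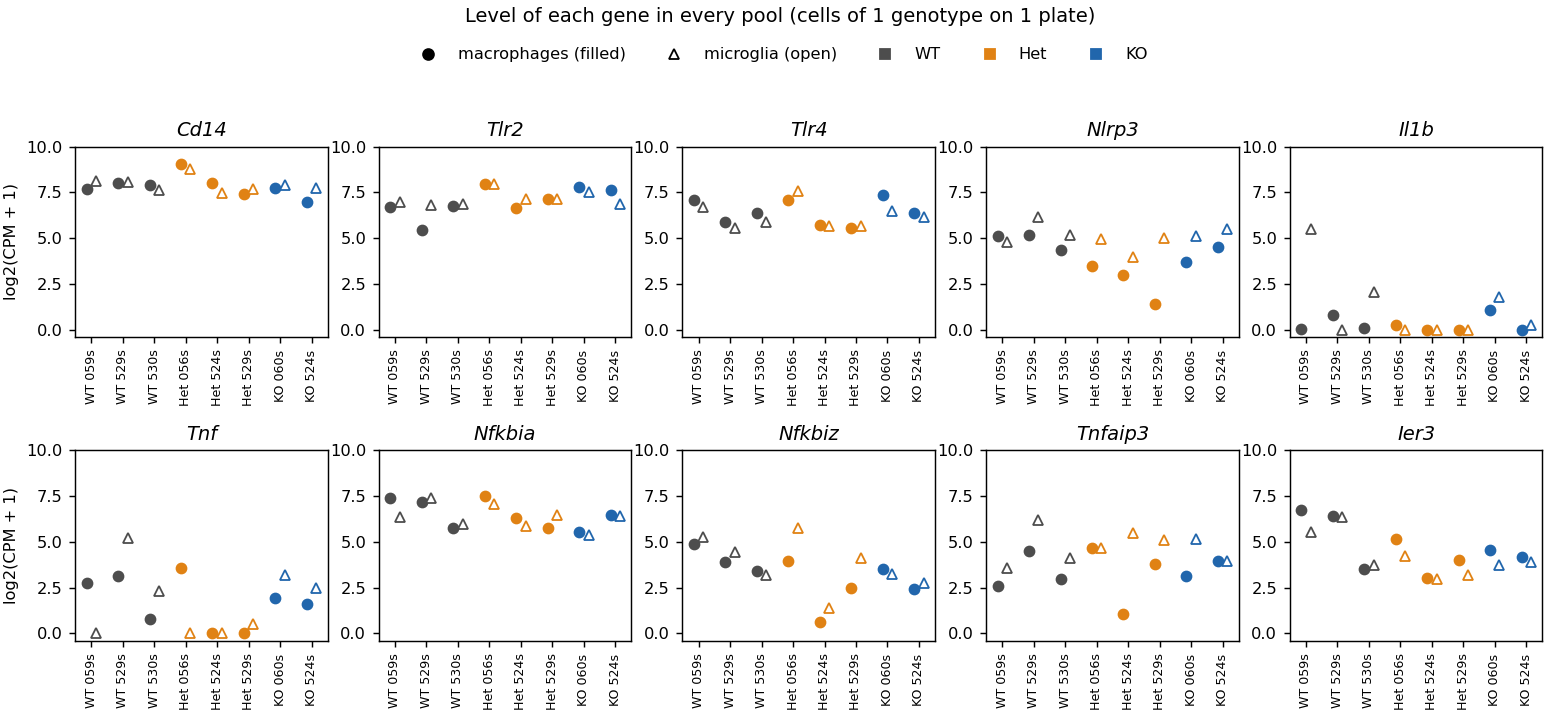
Level of each of the 10 genes in every pool, as log2(CPM + 1); filled circles are macrophages, open triangles microglia, and the colour gives the genotype. Cd14, Tlr2 and Tlr4 sit at like levels in both types, whereas Nlrp3 and Tnfaip3 lie higher in microglia in 7 of 8 pools, and Il1b is highest in WT microglia of plate 059s.

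Macrophages and microglia were compared pool by pool, since each of the 8 pools held both. A gene was called apart when it reached 20 CPM and a count in 25% of cells in the same type, differed at least 2-fold on CPM + 1 and lay on the same side in every pool. Of the 10 genes, 8 reached this floor, Il1b and Tnf being too low. None was called higher in macrophages, where 2.06% of all 5096 genes past the floor were, and none lower, where 5.02% were. With so few genes, either count is near the background.

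The nearest to a difference were Tnfaip3 and Nlrp3, both lower in macrophages. Tnfaip3, which encodes the ubiquitin-editing enzyme A20 that shuts off signalling to NF-kB, stood at 11.7 CPM (95% interval 11.2 to 12.2) among macrophages and 24.8 CPM (95% interval 23.9 to 25.7) in microglia, a log2 ratio of -1.02. Its macrophage values were 5.04, 22.1 and 6.83 CPM in the WT pools, 24.7, 1.12 and 13.1 CPM in the Het pools and 7.96 and 14.4 CPM in the KO pools. Its microglial values were 10.9, 71.2 and 16.4 CPM in the WT pools, 24.8, 44.2 and 33.1 CPM in the Het pools and 34.4 and 14.3 CPM in the KO pools. Macrophages were lower in 7 of 8 pools, with KO cells of plate 524s at 14.4 and 14.3 CPM the exception. In the strict cells, 388 macrophages and 115 microglia, it was at 11.8 and 25.4 CPM and was called, over 6 pairs of pools instead of 8. It was also called without plate 524s, at a log2 ratio of -1.06, but that plate held the only exception.

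Nlrp3 stood at 18.6 CPM (95% interval 18.0 to 19.2) among macrophages and 34.1 CPM (95% interval 33.1 to 35.2) in microglia, a log2 ratio of -0.84. In macrophages it was at 34.2, 34.3 and 19.2 CPM in the WT pools, 10.3, 6.92 and 1.68 CPM in the Het pools and 12.0 and 21.4 CPM in the KO pools. In microglia it was at 26.1, 71.0 and 34.9 CPM in the WT pools, 29.6, 14.5 and 31.1 CPM in the Het pools and 33.4 and 44.9 CPM in the KO pools. Again macrophages were lower in 7 of 8 pools, the exception being WT cells of plate 059s. Without that plate the log2 ratio was -1.13 and passed the rule, but its pool condition was then met by leaving out the only exception.

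Nfkbiz encodes an atypical IkB protein that acts in the nucleus on a second wave of NF-kB genes. It stood at 13.0 CPM among macrophages and 22.9 CPM in microglia, and was lower in macrophages in 6 of 8 pools. The values were 28.8, 14.1 and 9.62 CPM in the WT pools, 14.8, 0.561 and 4.70 CPM in the Het pools and 10.7 and 4.42 CPM in the KO pools for macrophages. For microglia they were 38.3, 21.3 and 8.20 CPM in the WT pools, 52.6, 1.63 and 16.5 CPM in the Het pools and 8.58 and 5.64 CPM in the KO pools. The difference between the types depended on which microglia were counted: in the strict cells, Nfkbiz stood at 13.1 CPM among macrophages and 12.8 CPM in microglia.

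Nfkbia and Ier3 leaned the other way. Nfkbia stood at 102 CPM among macrophages and 88.8 CPM in microglia, and was higher in macrophages in 5 of 8 pools. Ier3, an immediate early gene that also modulates NF-kB signalling and cell survival, stood at 34.3 and 24.0 CPM, a log2 ratio of 0.49, and was higher in macrophages in 7 of 8 pools. That ratio was 1.33 in the strict cells, when microglia stood at 12.5 CPM.

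Shares of cells with a count were lower in macrophages for all 10 genes, before and after thinning, as they were for 91.3% and 90.5% of all genes past the floor. Macrophages also held fewer genes, with a median of 3402.5 genes per cell against 4720.0 in microglia. To compare them at 1 depth, each cell was thinned to 116405 counts, which left 354 macrophages and 199 microglia and dropped 46 and 16 shallower cells. Nlrp3 was then found in 17.5% (13.7 to 21.9) of macrophages and 43.2% (36.2 to 50.4) of microglia, and Tnfaip3 in 8.19% (5.55 to 11.6) and 30.7% (24.3 to 37.6), with exact 95% binomial intervals. The unthinned shares were 23.8% and 50.7% for Nlrp3 and 9.50% and 34.4% for Tnfaip3. Tlr2 was found in 61.9% and 81.9% of thinned cells, although its summed level was equal in both types, and Nfkbia in 51.1% and 74.9%. The counts of Tlr2 thus came from a smaller share of macrophages than of microglia at the same summed level.

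Nlrp3 and Tnfaip3, 2 of the 8 genes past the floor, had the lower share in macrophages in every pool, with and without thinning. Nfkbiz did so in 8 pools before thinning and 7 after it, and Tlr2 in 7 and 8. Of all genes past the floor, 30.3% did so before thinning and 27.2% after it, so a share of this kind was common. The shares of Ier3, at 21.5% and 26.1% of thinned cells, and of Tnf, at 4.24% and 6.03%, had overlapping intervals. Thinned macrophages held a median of 3 of the 10 genes per cell and thinned microglia a median of 5. The mean number per pool ran from 2.90 to 3.79 in macrophages and from 3.60 to 5.29 in microglia, and the WT pool of plate 530s was the lowest in both types.

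**Figure D2:**
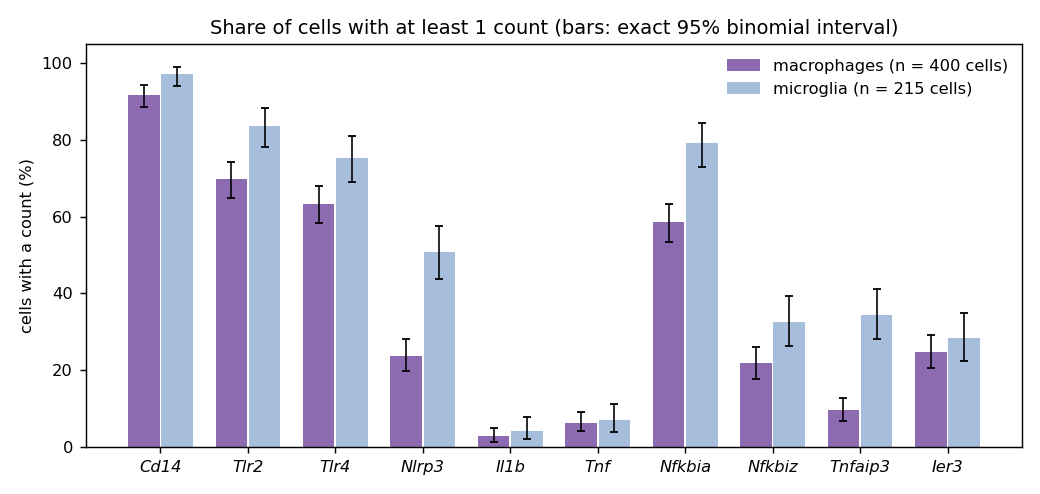
Share of cells, in percent, with at least 1 count of each gene in the 400 macrophages and 215 microglia before thinning, with exact 95% binomial intervals. The bars of Nlrp3, at 23.8% and 50.7%, and of Tnfaip3, at 9.50% and 34.4%, are the farthest apart relative to their height.

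The cytokine genes were near absent from most cells. Il1b had a count in 20 of the 615 macrophages and microglia and Tnf in 40, and only 2 cells, both macrophages, held both. Of the 1307 Il1b counts, 1186 came from 4 of the 44 WT microglia of plate 059s, which held 43, 109, 311 and 723 counts. That pool stood at 43.5 CPM, and the pools next to it were at 3.09 CPM in WT microglia of plate 530s and 2.48 CPM in KO microglia of plate 060s. Het microglia had 0 Il1b counts in 58 cells, where the limit that 3 counts set is a detected share of 5.17%, and cells without a count may still express the gene. In the 9 microglia with an Il1b count, neither S100a8 nor S100a9, both abundant neutrophil transcripts, passed 13.0 CPM in any cell, and in the 11 macrophages neither passed 35.7 CPM. The other neutrophil markers, Csf3r among them, were not read in these cells, and a part of neutrophil transcripts was not tested. Il1b overlaps the antisense gene Il1bos in GENCODE M21, and whether counting used strand is not given in the sources used here, so their reads could not be told apart.

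Tnf summed to 4.23 CPM among macrophages and 4.24 CPM in microglia. Its macrophage values were 5.87, 7.90 and 0.761 CPM in the WT pools, 10.9, 0 and 0 CPM in the Het pools and 2.89 and 2.06 CPM in the KO pools. Its microglial values were 0, 36.6 and 4.06 CPM in the WT pools, 0, 0 and 0.432 CPM in the Het pools and 8.04 and 4.57 CPM in the KO pools. Single cells set the high pools: 1 Het macrophage of plate 056s held 443 of all 1340 counts, and 1 WT microglial cell of plate 529s held 241 of the 246 counts of its pool. At these numbers no order of the genotypes could be read for either cytokine.

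Levels of different genes were set side by side per kilobase of exon. In macrophages Cd14 led with 164 CPM per kilobase, followed by Nfkbia with 63.5, Tlr2 with 49.9, Ier3 with 30.3 and Tlr4 with 19.2. The remaining genes were below 5 CPM per kilobase: Nlrp3 with 4.59, Nfkbiz with 2.59, Tnf with 2.58, Tnfaip3 with 1.62 and Il1b with 0.121. Microglia had the same first 6 genes in the same order, from Cd14 with 154 to Nlrp3 with 8.41 CPM per kilobase. Every pair of neighbours in either order overlapped in its range over pools.

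The feedback genes Nfkbia and Ier3 varied widely between pools of the same genotype. Nfkbia was at 170.5, 145 and 53.0 CPM in the WT pools, 180.4, 78.0 and 52.3 CPM in the Het pools and 45.5 and 87.0 CPM in the KO pools among macrophages. Among microglia it was at 82.2, 171 and 62.4 CPM in the WT pools, 136, 56.9 and 88.1 CPM in the Het pools and 41.4 and 85.9 CPM in the KO pools. In both types the 3 lowest pools were KO of plate 060s, WT of plate 530s and a Het pool, so each genotype was among them.

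Ier3 was at 105, 84.3 and 10.4 CPM in the WT pools, 35.3, 7.11 and 14.9 CPM in the Het pools and 22.3 and 17.2 CPM in the KO pools in macrophages. In microglia it was at 45.9, 80.4 and 12.2 CPM in the WT pools, 18.2, 6.80 and 8.13 CPM in the Het pools and 12.2 and 14.2 CPM in the KO pools. WT pools of plates 059s and 529s were the highest in both types, and the WT pool of plate 530s lay among the Het and KO pools. The 3 WT pools thus spanned 10.1-fold in macrophages and 6.61-fold in microglia, more than the ratio of any pair of genotypes for this gene.

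These pools also differed in immediate early genes, a list of 21 transcripts such as Fos and Jun that dissociation and stress induce quickly. Their summed level was 1660.2, 2460.3 and 541 CPM in the WT pools, 1773, 652 and 629 CPM in the Het pools and 435 and 631 CPM in the KO pools in macrophages. It was 1199.9, 2417 and 633 CPM in the WT pools, 940.1, 626 and 499 CPM in the Het pools and 651 and 730.4 CPM in the KO pools in microglia. The macrophage pools with the 3 highest sums, WT of plates 059s and 529s and Het of plate 056s, also had the 3 highest values of Nfkbia and of Ier3. Across the 8 pools the rank correlation with this sum was 0.88 for Nfkbia and 0.55 for Ier3 in macrophages, where all genes had a median of 0.12 and a 90th percentile of 0.55. In microglia it was 0.48 and 0.98, against a median of 0.33 and a 90th percentile of 0.74. Depth moved with Nfkbia too in macrophages, with a rank correlation of 0.83 to the median counts per cell. Cd14 had 0.52 and 0.81 with the immediate early sum, and Tlr2 -0.38 and -0.33. The part of dissociation in these levels was not tested.

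**Figure D3:**
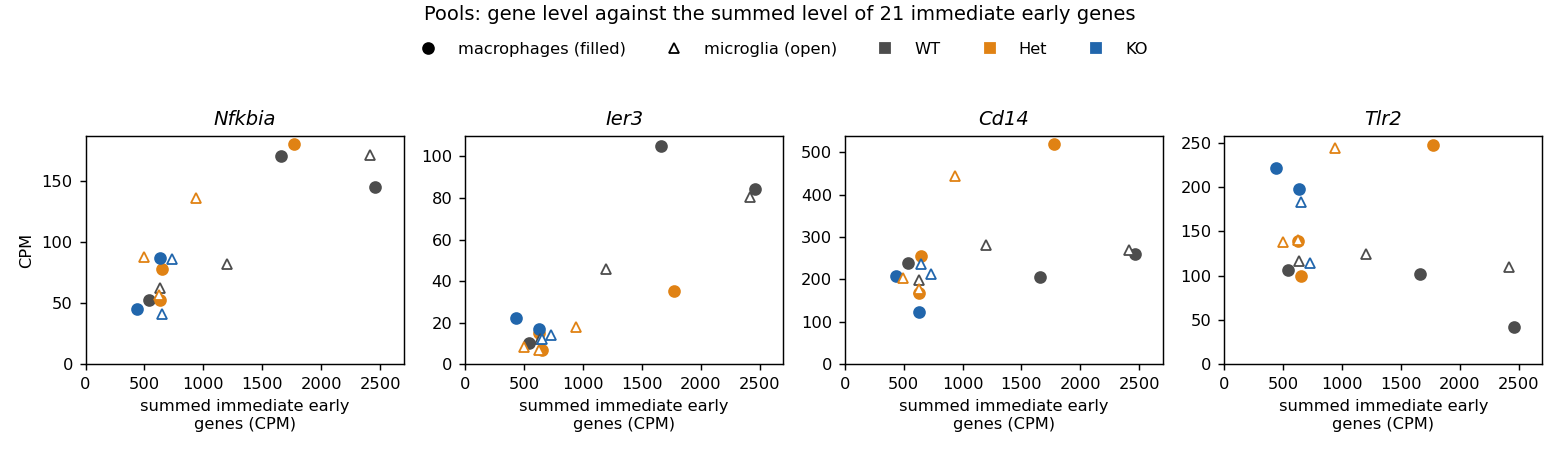
CPM of Nfkbia, Ier3, Cd14 and Tlr2 in each pool against the summed CPM of 21 immediate early genes; filled circles are macrophages, open triangles microglia, and the colour gives the genotype. Pools above 1000 CPM on the x axis hold the highest Ier3 values, from 35.3 to 105 CPM, while Tlr2 shows no such rise.

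The KO cells were then compared with the WT and Het cells. A gene was called in KO when it passed the floor in a genotype, differed at least 2-fold in 1 direction from WT and from Het, and had both KO pools beyond all 6 WT and Het pools. Of the 10 genes, 6 reached the floor in macrophages and 8 in microglia, and none was called. Among all genes past the floor, 0.256% were called higher and 0.513% lower in KO macrophages, and 0.125% and 0.339% in KO microglia, and a count of 0 among so few genes is near that background.

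In macrophages the WT, Het and KO levels of Cd14 were 233, 452 and 182 CPM. Those of Nfkbia were 89.9, 155 and 58.2 CPM. Both were lowest in KO, and both overlapped with WT or Het pools. Without plate 060s the log2 ratio of KO over WT went from -0.62 to -0.05 for Nfkbia and from -0.35 to -0.91 for Cd14. Without plate 056s that of KO over Het went from -1.40 to -0.15 for Nfkbia and from -1.31 to -0.20 for Cd14. The size of these ratios thus depended on single plates. The median log2 ratio of all genes was 0.00 for KO over WT and -0.50 for KO over Het. The WT, Het and KO levels of Tlr2 were 99.1, 220.1 and 214 CPM, so KO was 2.15-fold above WT but level with Het over all plates. Without plate 056s its log2 ratio of KO over Het went from -0.04 to 0.83, so that level rested on 1 plate.

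Ier3 in WT, Het and KO macrophages was at 40.1, 30.1 and 20.7 CPM. Leaving out plate 059s took its log2 ratio of KO over WT from -0.92 to 0.07, so 1 plate set that direction. Tlr4 was at 93.0, 115 and 139.6 CPM in the same order. Without plate 060s its log2 ratio of KO over WT went from 0.58 to -0.18 and that over Het from 0.28 to -0.48, so this direction also turned with 1 plate.

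The other 3 genes with more than single counts were spread unevenly. Nlrp3 in WT, Het and KO macrophages was at 24.2, 8.96 and 14.9 CPM. Nfkbiz was at 14.6, 12.2 and 8.76 CPM and Tnfaip3 at 7.87, 21.0 and 9.92 CPM, and neither reached the floor in a genotype. For Tnfaip3 1 cell held 71.6% of the counts of KO macrophages of plate 060s and another 87.1% of those of plate 524s.

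In microglia Nfkbiz had the lowest KO level relative to both other genotypes, with 6.84 CPM where WT had 28.3 and Het 31.4 CPM. Its KO pools, at 8.58 and 5.64 CPM, nevertheless lay above the Het pool of plate 524s at 1.63 CPM and next to the WT pool of plate 530s at 8.20 CPM. A count was present in 40.5% of WT, 25.9% of Het and 29.5% of KO microglia. Of the Het counts of plate 056s, 75.8% lay in 1 cell. Ier3 stood at 13.4 CPM in KO microglia and 12.7 CPM in Het, both below the 42.6 CPM of WT. In the strict cells, where the WT pool of plate 529s is missing, the log2 ratio of KO over WT went from -1.60 to -0.05. Cd14, Tlr2, Tlr4, Nlrp3, Nfkbia and Tnfaip3 in KO microglia all differed at most 1.56-fold from WT and from Het when all cells were counted. In the strict cells Tnfaip3 was at 30.5 CPM in KO and 13.8 CPM in WT, a log2 ratio of 1.09 instead of 0.08, but was not called. Without plate 524s, which left 1 KO pool, Nfkbia was called lower in KO, at log2 ratios of -1.11 over WT and -1.47 over Het.

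Het was set against WT by the same rule. In macrophages 1 of 6 genes past the floor, Nlrp3, was called lower in Het, where 0.424% of all genes were called lower and 1.25% higher. Nlrp3 stood at 8.96 CPM (95% interval 8.17 to 9.81) in Het and 24.2 CPM (95% interval 23.3 to 25.2) in WT, a log2 ratio of -1.34. Its Het pools, at 10.3, 6.92 and 1.68 CPM, lay below its WT pools, at 34.2, 34.3 and 19.2 CPM, a separation at any fold that 1.72% of all genes past the floor showed. Few cells held most of the counts. Of the 468 Het counts 335 lay in 1 cell, and a count was present in 24.3% of Het and 26.1% of WT macrophages. Nlrp3 thus passed the floor of 20 CPM and 25% of cells only through WT, and narrowly. In thinned cells, without the top cell of each pool and without plate 530s, Nlrp3 no longer passed the floor and so was not called, while its log2 ratio was -1.19, -2.42 and -1.82. Without the top cells WT stood at 15.4 CPM and Het at 2.07 CPM. KO macrophages, at 14.9 CPM, lay between Het and WT, and in Het microglia Nlrp3 stood at 27.6 CPM against 34.9 CPM in WT.

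Cd14 and Tlr2 were higher in Het than in WT macrophages by log2 ratios of 0.95 and 1.14, where the median of all genes was itself 0.51 higher. Leaving Rn18s out of the total brought that median to 0.05. Without plate 056s the ratios of Cd14 and Tlr2 were -0.15 and 0.28. Nfkbia went from 0.78 to -0.47, so that the direction of Cd14 and Nfkbia turned with that plate. Tlr2 was called higher in Het without plate 524s, at a log2 ratio of 1.23, and Cd14 without plate 529s, at 1.08.

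The remaining ratios of Het over WT macrophages were 0.30 for Tlr4 and -0.40 for Ier3 past the floor, and -0.24 for Nfkbiz and 1.31 for Tnfaip3 below it. Without plate 056s they were -0.93, -1.75, -2.06 and -0.07 in the same order, all below 0. The median of all genes without plate 056s was -0.33. Without plate 530s Ier3 was called lower in Het, at -1.69.

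In microglia no gene was called between Het and WT, where 0.623% of all genes were called higher and 1.48% lower. Tlr2 had every Het pool above every WT pool, as 1.17% of all genes did, with a log2 ratio of 0.65, short of 2-fold. The ratio was 0.20 without plate 056s. A count of Tlr2 was present in 98.3% of Het and 77.2% of WT microglia. Ier3 had a larger ratio, -1.66, but the Het pool of plate 056s at 18.2 CPM lay above the WT pool of plate 530s at 12.2 CPM. With TMM or DESeq2 factors, or with Rn18s left out of the total, the pools no longer overlapped and Ier3 was called lower in Het. The same held without plate 056s or plate 530s, at log2 ratios of -2.32 and -1.97, but these plates held the overlapping pools. Tnfaip3 was called higher in Het without plate 529s, which held its highest WT pool, at 1.19. In the strict cells the ratio of Ier3 was -0.67, against a median of -0.35 over all genes, and Ier3 was not called.

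Plates 529s and 524s each held cells of more than 1 genotype and so allowed a comparison inside a plate. On plate 529s Cd14, Nlrp3, Tnf, Nfkbia, Nfkbiz, Tnfaip3 and Ier3 were lower in Het than in WT cells of both types. How many of all genes were lower in Het in both types was not counted. Ier3 was at 14.9 CPM in Het and 84.3 CPM in WT macrophages and at 8.13 and 80.4 CPM in microglia, and Nfkbia at 52.3 and 145 CPM and at 88.1 and 171 CPM. Nlrp3 was at 1.68 and 34.3 CPM among macrophages and 31.1 and 71.0 CPM in microglia. Tlr2 went the other way, at 139 CPM in Het and 42.1 CPM in WT macrophages and at 138 and 109.9 CPM in microglia. Tlr4 was at 45.1 CPM in Het and 58.1 CPM in WT macrophages and at 49.1 and 46.3 CPM in microglia. Il1b was at 0 CPM in microglia of both genotypes. The medians over all genes were -0.04 and -0.13 on the log2 scale.

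Other values moved with genotype on that plate. The immediate early sum was 629 CPM in Het and 2460 CPM in WT macrophages, and 499 and 2417 CPM in microglia. In macrophages Xist was at 372 CPM in Het and 0.565 CPM in WT and the Y-linked Ddx3y at 0 and 29.8 CPM, so the Het cells were female and the WT cells male. Sex and genotype therefore cannot be told apart there, and the part of the immediate early genes was not tested. The WT pool of plate 530s, with an immediate early sum of 541 CPM, had Ier3 at 10.4 CPM and Nfkbia at 53.0 CPM in macrophages, within the range of the Het pools. The macrophages of that pool were female, with Xist at 354 CPM and Ddx3y at 0 CPM. Those of the WT pool of plate 059s were male, with Xist at 0.227 CPM and Ddx3y at 63.6 CPM. The part of sex in these levels was not tested.

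On plate 524s KO macrophages had Tlr2 at 198 CPM against 99.2 CPM in Het, Nlrp3 at 21.4 against 6.92 CPM and Cd14 at 123 against 255 CPM. In microglia of that plate Nlrp3 was at 44.9 CPM in KO and 14.5 CPM in Het, whereas Tnfaip3 was at 14.3 and 44.2 CPM. Macrophages went the other way for Tnfaip3, at 14.4 CPM in KO and 1.12 CPM in Het. Nlrp3 was higher in KO in both types, and so were Tlr4, Tnf, Nfkbia, Nfkbiz and Ier3, but some of these rest on little. Tnf was at 0 CPM in Het cells of both types, and Nfkbiz at 0.561 CPM in Het macrophages. Nfkbia was at 87.0 CPM in KO and 78.0 CPM in Het macrophages. How many of all genes were higher in KO in both types was not counted. The medians over all genes were -0.02 in macrophages and 0.27 in microglia on the log2 scale. The KO cells were female and the Het cells male, with Xist at 274 and 0.374 CPM in macrophages, so that genotype and sex cannot be told apart on this plate either.

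Within pools, cells with more of 1 gene did not clearly hold more of another. Over 45 pairs of the 10 genes, the correlation of log2(CPM + 1) after removing pool means ran from -0.09 to 0.21 in 400 macrophages and from -0.08 to 0.21 in 215 microglia. The highest pair was Nlrp3 with Ier3 in macrophages, where 34 cells held both of 95 with Nlrp3 and 99 with Ier3, and Cd14 with Tlr4 in microglia. In counts this sparse such values are no finding. Cells of 1 pool share a plate, and across microglia Cd14 correlated at 0.24 with the log2 depth of the cell.

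The genes most like each member across the same cells were drawn from 8167 genes in macrophages and 9225 in microglia. In microglia Cd14 was most like Slc9a9 at 0.41 and the MHC class I gene H2-K1 at 0.38. Ier3 was most like Ankrd39 at 0.36 and Fosl2, a partner of Jun, at 0.30. Tlr2 was most like Tgfbi and Mfsd1, both at 0.31, and Nfkbia most like Ms4a6b at 0.31. In macrophages, where Cd14, Tlr2, Tlr4 and Nfkbia were common enough to be compared, no gene passed 0.22. Each value was picked as among the highest of 9225 correlations in microglia or 8167 in macrophages. The depth of the cell was not removed. Such picked values are no finding about a shared role.

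**Figure D4:**
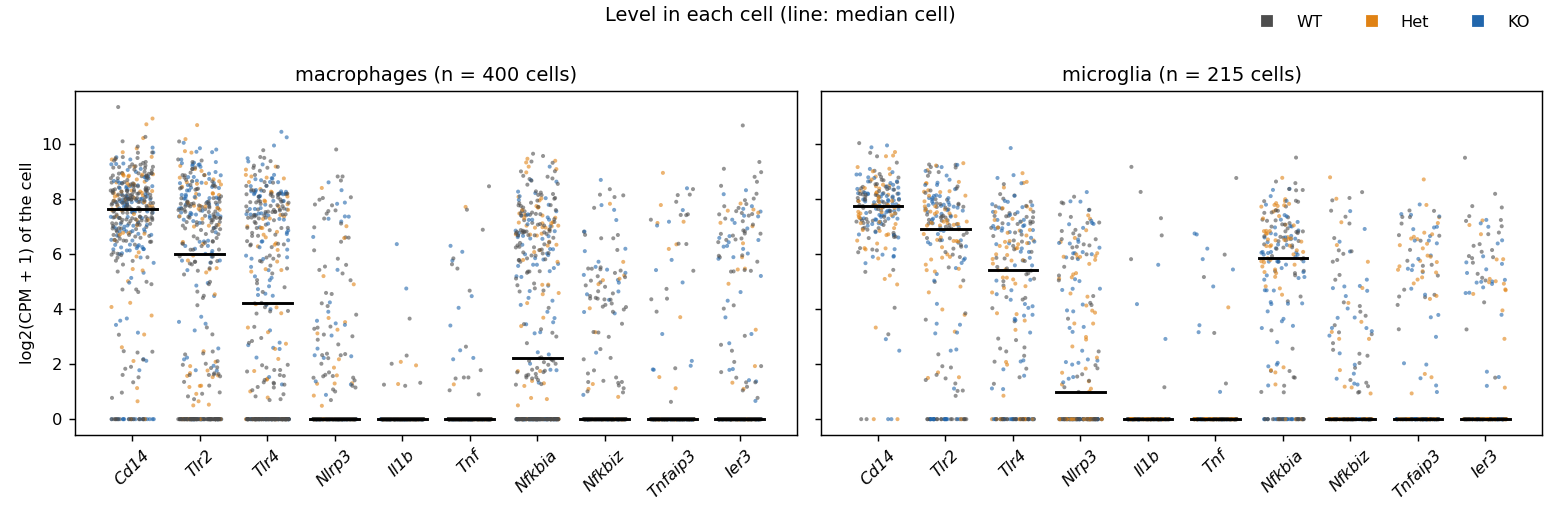
Level of each gene in every cell, as log2(CPM + 1), for macrophages and microglia; the colour gives the genotype and the black line the median cell. Most cells hold Cd14, while Il1b and Tnf show a few high cells above a median of 0.

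The wider pathway held 6 lists, chosen with earlier results of these cells known and without the 10 genes themselves. Among 26 genes of Toll-like receptors, co-receptors and adaptors, 20 passed the floor between the cell types and 1, Tlr3, was called lower in macrophages, a share near the 5.02% of all genes. Tlr3, the endosomal sensor of double-stranded RNA, stood at 4.58 CPM (95% interval 4.28 to 4.89) among macrophages and 24.8 CPM (95% interval 23.9 to 25.7) in microglia. Its macrophage pools lay at 5.91, 1.98 and 3.14 CPM in the WT pools, 0.0244, 0 and 1.34 CPM in the Het pools and 20.1 and 3.08 CPM in the KO pools. Its microglial pools lay at 38.9, 5.06 and 24.6 CPM in the WT pools, 12.0, 40.5 and 15.0 CPM in the Het pools and 27.6 and 24.0 CPM in the KO pools. Each macrophage pool was below the microglial pool of the same plate and genotype.

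Of the 13 inflammasome and interleukin-1 genes 7 passed the floor, and 2 were called, 1 lower and 1 higher in macrophages. Of all genes past the floor 5.02% were called lower and 2.06% higher, and with so few genes these counts say little. Il1a, the gene of the other interleukin-1 cytokine, stood at 0.329 CPM (95% interval 0.253 to 0.420) among macrophages and 56.9 CPM (95% interval 55.6 to 58.3) in microglia, 43.6-fold on CPM + 1. It was found in 5.00% (3.08 to 7.62) of macrophages and 49.3% (42.4 to 56.2) of microglia. The macrophage pools lay at 0.114, 0.0941 and 0.584 CPM in the WT pools, 0.147, 0.561 and 0.168 CPM in the Het pools and 0.181 and 0.308 CPM in the KO pools. The microglial pools lay at 52.1, 25.5 and 42.1 CPM in the WT pools, 94.1, 39.6 and 51.0 CPM in the Het pools and 61.2 and 53.5 CPM in the KO pools, so the ranges did not overlap. Il1a was thus counted in 106 microglia, near the 109 with Nlrp3, while Il1b was counted in 9.

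Nlrc4, an inflammasome sensor of bacterial flagellin and secretion proteins, was called higher in macrophages, at 45.6 CPM (95% interval 44.7 to 46.6) against 15.1 CPM (95% interval 14.4 to 15.8) in microglia. The macrophage pools were at 71.5, 20.2 and 25.2 CPM in the WT pools, 70.6, 38.0 and 70.1 CPM in the Het pools and 46.9 and 38.8 CPM in the KO pools. The microglial pools were at 28.6, 14.0 and 2.29 CPM in the WT pools, 10.3, 4.29 and 2.09 CPM in the Het pools and 24.5 and 14.7 CPM in the KO pools. Macrophages were higher in each of the 8 pools. The inflammasome sensors Nlrp3 and Nlrc4 therefore lay on opposite sides, Nlrp3 without passing the rule.

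Of the 25 cytokines and other NF-kB targets, 10 passed the floor and 1, the adhesion gene Icam1, was called lower in macrophages. Icam1 stood at 28.0 CPM (95% interval 27.2 to 28.7) among macrophages and 112 CPM (95% interval 110.1 to 114) in microglia. Its macrophage pools lay between 0.935 and 64.5 CPM and its microglial pools between 74.3 and 142 CPM, with no overlap. None of the 9 NF-kB subunits and kinases, the 6 inhibitors or the 10 immediate early genes past the floor was called between the types. Ikbkb, the kinase that marks IkB proteins for destruction, was at 105 CPM among macrophages and 129 CPM in microglia, and Nfkb1, a subunit, at 103 and 116 CPM. Median log2 ratios of the 6 lists lay between -0.39 and 0.34, and that of all genes was 0.02. Over these lists together 62 genes passed the floor between the types, and 1 was called higher and 3 lower in macrophages. Of all genes past the floor 2.06% were called higher and 5.02% lower, so both counts are near the background.

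No gene of these 6 lists was called in KO in either cell type. Between Het and WT macrophages none was called either, Nlrp3 being outside the lists. Between Het and WT microglia 3 of 65 genes past the floor were called lower in Het, where 1.48% of all genes were. Tlr5, the receptor for bacterial flagellin, was at 85.2, 88.6 and 67.6 CPM in the WT pools, 40.6, 21.3 and 35.9 CPM in the Het pools and 51.9 and 67.2 CPM in the KO pools. The immediate early genes Junb and Egr1 were the others, Junb with 29.4, 43.0 and 44.5 CPM in the Het pools against 79.3, 136 and 62.5 CPM in the WT pools. Egr1 was at 0, 3.11 and 2.73 CPM in the Het pools and 34.2, 7.30 and 34.9 CPM in the WT pools. Of the 1378 Egr1 counts of WT microglia 667 lay in 1 cell. A count was present in 25.3% of WT microglia, just above the floor of 25%.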

How the data were processed

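The authors deposited a table of raw counts, whole numbers with 1 column per cell, for 53546 genes and 92 ERCC spike-ins, which were set aside (1.22% of counts). The submitters' processing notes named STAR. For its version, the genome build, the annotation, the strand setting and any filter on cells, the entry is: not given in the sources used here. Titles tied each of the 629 columns to 1 cell.

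Counts were summed over cells and scaled to CPM of all genes, with exact Poisson 95% intervals; shares carry exact (Clopper-Pearson) 95% intervals. A count of 0 was given the limit that 3 counts set. Ratios used CPM + 1. Genes called apart had 20 CPM and a count in 25% of cells in the same group, a 2-fold ratio and pools that did not overlap. Since no label named an animal, no test was run. Cells were thinned at random, with a fixed seed, to the 10th percentile of depth, and cells under it were left out. Doublets were not called.

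The 10 genes are all named; of other lists, genes that were called, or otherwise those with the highest summed CPM. For genes most like a member, the 2 with the highest correlation over cells of a type were taken, among genes with a count in 10% of them and for members with a count in 25%. The genes and lists were chosen with earlier results of these data known. Promoter windows are from RefSeq (GRCm38.p6); 7 of the 10 genes had an entry. Exon lengths and overlaps are from GENCODE M21.

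Alternatives changed the scaling (edgeR 4.0.16 TMM, DESeq2 1.42.0 size factors, R 4.3.3), pseudocount, floor, fold and cells, and left out each plate. Tools were Python 3.11.15, pandas 2.3.3, numpy 2.4.6, scipy 1.17.1 and matplotlib 3.10.9. The calling rule was also run on simulated counts with known folds. Those counts had no differences between plates and no cells that held most counts of a pool, unlike these data. No error rate for these data follows from that run.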

Additional observations from a re-analysis of the deposited data

Results flagged for a closer look

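The 14 cells of the type named 7 entered no comparison. The Tnf level of these cells was 21.7 CPM (95% interval 15.3 to 30.0). Macrophages had 4.23 CPM and microglia 4.24 CPM, which singled it out as a signal in cells outside the comparisons. All 37 counts lay in 1 Het cell, and the median depth of these cells was 47582 counts.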

How the results depend on the processing

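Each count of genes called apart was recomputed under alternatives to the scaling, floor, fold, pseudocount, cells and plates, and 185 of 200 such counts stayed the same. All counts were 0 at first except the count of 1 lower in Het macrophages. A count that stayed at 0 among so few genes says little. Of 1400 log2 ratios of the 10 genes, 1269 kept their sign. A log2 ratio does not depend on the floor or the fold. It therefore could not change under those alternatives, nor without a plate that held neither group compared. Between macrophages and microglia, the count lower in macrophages went from 0 to 1 without plate 059s (Nlrp3), and likewise without plate 524s and without cells carrying markers of the other type, over 6 pairs of pools (Tnfaip3 in both). For Het against WT macrophages, the count higher in Het went from 0 to 1 without plate 524s (Tlr2) and without plate 529s (Cd14), and the count lower went from 1 to 0 in thinned cells and without the top cell of each pool, where Nlrp3 fell under the floor. Without plate 530s that count stayed at 1, with Ier3 in place of Nlrp3. For KO microglia the count lower went from 0 to 1 without plate 524s (Nfkbia), which left 1 KO pool. For Het against WT microglia, the count higher went from 0 to 1 at 1.5-fold (Tlr2) and without plate 529s (Tnfaip3), and the count lower went from 0 to 1 (Ier3) with TMM factors, with DESeq2 size factors, with Rn18s left out of the total, without plate 056s and without plate 530s. Leaving out a plate leaves fewer pools to separate; for the other alternatives the cause was not tested. Macrophages and microglia were compared within pools, without a test. No paired analysis was possible because the labels give no replicate numbers and no animals, and a genotype counts as 1 sample. Depth limits what can be read for Il1b and Tnf: a cell at the thinned depth holds 116405 counts, so 1 count there stands for 8.59 CPM.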

Other observations

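The cells of the type named 7 carried transcripts of several classes, with the neutrophil granule gene Ngp at 1099 CPM and the myelin gene Mbp at 1421 CPM among them, Tmem119 at 645 CPM and Mrc1 at 2402 CPM. In these cells Cd14 stood at 109 CPM with a count in 11 of 14 cells, Tlr2 at 23.5 CPM, Nfkbia at 75.8 CPM and Ier3 at 11.2 CPM. Il1b had 0 counts in the 14 cells, where the limit that 3 counts set is a detected share of 21.4%. Their depth was low, and cells without a count may still express the gene.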
